A study of Homo sapiens with 18 samples.

Results

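The comparison described here set 3 libraries of senescent IMR90 ER:RAS cells beside 3 libraries of control cells, both kept in DMSO and neither given an inhibitor. These are 6 of the 18 libraries of the study, chosen by their labels alone, and every gene of the table was examined. The cells were IMR90, a human line of fibroblasts from lung. The ER:RAS construct joins oncogenic RAS to the hormone-binding part of the oestrogen receptor, brought in by retrovirus, and 4-hydroxytamoxifen (4OHT) switches it on. Both groups carried ER:RAS and have the genotype label WT. The senescent group received 100 nM 4OHT and the control group DMSO, and after 7 days both groups were given DMSO for another 3 days and collected on day 10. The drug was therefore present in 1 group only, and an effect of 4OHT that does not pass through ER:RAS cannot be told apart from senescence in these libraries. The labels do not say whether the 3 libraries of a group came from separate cultures. The study describes its replicates of these conditions as independent experiments, and p-values measure the spread between libraries.

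Oncogene-induced senescence is a lasting arrest of the cell cycle that follows a strong growth signal from RAS through the RAF, MEK and ERK kinases. Arrested fibroblasts remain metabolically active and release cytokines, chemokines, growth factors and proteases, together called the senescence-associated secretory phenotype (SASP). Transcription of much of the SASP depends on NF-κB and C/EBPβ and is fed by interleukin 1. Because these are bulk libraries, fewer cells of a type and less RNA per cell cannot be told apart.

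Expression is given as CPM, counts per 1000000 counts of a library, with each library size adjusted for composition and not to transcript length, as mean ± SD over 3 libraries where no library is named. A log2 fold change (log2FC, senescent over control) is given ± SE. A gene is said to have risen or fallen when its adjusted p in edgeR's quasi-likelihood test was under 0.05. Where all 3 libraries of a group had no count, the fold is a lower bound against 3 counts in a library, and where the 3 libraries held 1 to 3 counts in all, the ratio of the groups is given with its exact 95% counting interval. Intervals and bounds cover counting error only.

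Library totals ran from 17758122 to 23189950 counts, and 3 counts corresponded to between 0.121 and 0.187 CPM. On the first principal component of the 6 libraries, which held 90.9% of the variance, control libraries lay between -91.0 and -89.9 and senescent libraries between 89.0 and 91.3. Control replicate 3 stood apart from the other control libraries: its counts differed from those of replicates 1 and 2 by a chi-square of 97.2 and 49.05 per gene, against 15.7 between replicates 1 and 2 and 5.02 to 10.96 among senescent libraries. Messages of cytosolic ribosomal proteins held 7.64% of its counts, 4.44% and 5.27% in the other control libraries and 2.97% to 3.35% in senescent libraries. Without control replicate 3 the number of genes called went from 9827 to 10027.

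Summed levels in this paragraph are without the adjustment for composition. The factors of that adjustment were 1.056 to 1.077 in control and 0.892 to 0.905 in senescent libraries. Differences of that size between the sums therefore depend on it. All 14 fibroblast markers checked were above the 3-count level in both groups. Their summed level was 35019 to 45440 CPM in control and 30870 to 32613 CPM in senescent libraries. Of 12 epithelial markers, CDH1, KRT5, KRT14, ESRP1 and SFTPC were at or under 3 counts in every library of both groups. The summed level of the list was 114 to 159 CPM in control and 40.4 to 45.6 CPM in senescent libraries. Of the others, CLDN4 rose from a mean of 1.945 to 10.05 CPM with the adjustment, and KRT8, KRT18 and KRT19 fell. EPCAM, CLDN7 and ELF3 did not pass. Of 12 immune markers, CD3E, ITGAM, AIF1 and TYROBP were at or under 3 counts in every library of both groups. The summed level of the 12 was 34.8 to 45.3 CPM in control and 124 to 150.5 CPM in senescent libraries. CD68, a lysosomal protein, was the most abundant of them in senescent cells, at a mean of 132 CPM with the adjustment. Endothelial markers are described with the transcription factors below.

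Senescent and control cells differed in most of the genes tested. At an adjusted p under 0.05, 32.5% of the 14341 genes tested had a higher level in senescence and 36.0% a lower one, and 9.71% and 12.5% were higher and lower by more than 2-fold when the test was made against that fold. The median log2FC of all genes was -0.05, with quartiles of -0.72 and 0.53, and the median absolute size was 0.62. Upper quartile scaling in place of TMM shifted the median by -0.15, so changes of that size depend on the scaling. Of fitted changes of at least 256-fold, 58 were rises and 31 falls, while at 2-fold there were 1932 rises and 2648 falls. Fitted folds of genes near 0 counts depend on the prior count and on library depth. The level of 3 counts was 0.121 to 0.149 CPM in control and 0.165 to 0.187 CPM in senescent libraries. Numbers of genes near that level in 1 group are therefore not strictly comparable between the groups. The libraries of the groups did not overlap in 67.6% of genes, 32.4% higher and 35.2% lower in senescent cells. In 227 genes every control library, but not every senescent library, was at or under 3 counts, and in 353 genes the reverse held. In the plot of group means the first lie along the left edge and the second along the lower edge.

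**Figure D1:**
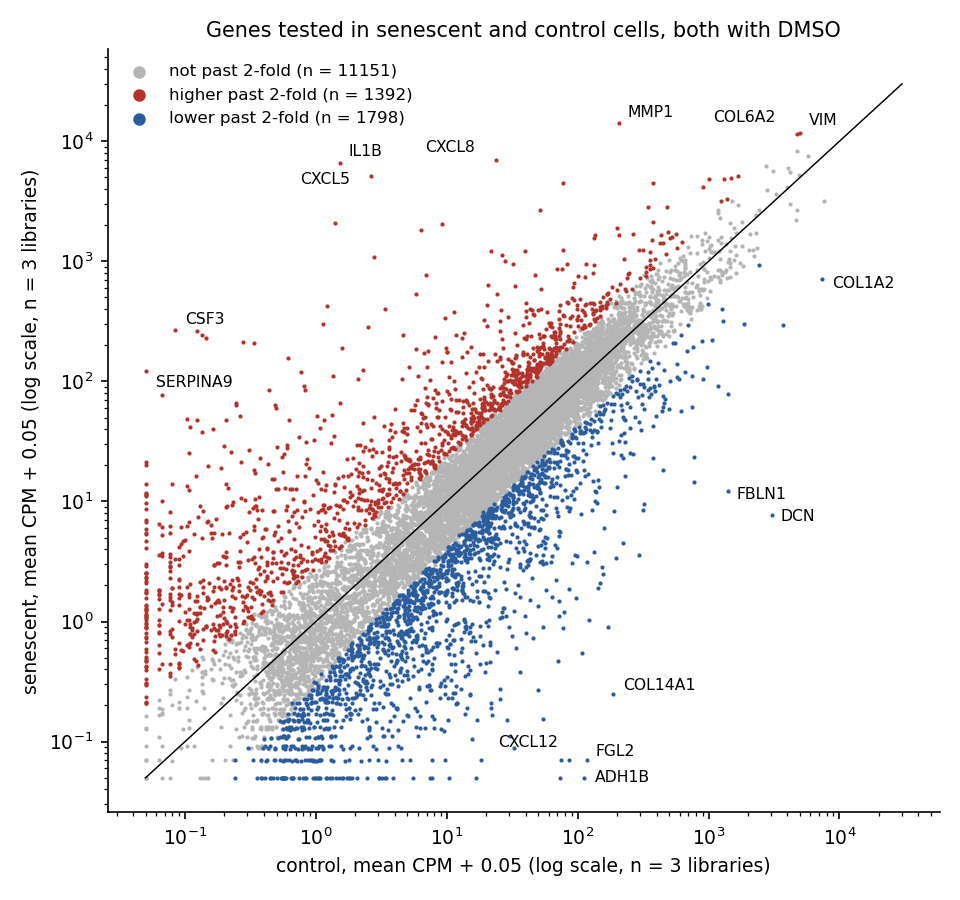
Mean CPM of each of the 14341 genes tested in control cells (x axis) and senescent cells (y axis), both with 0.05 added and on log scales, n = 3 libraries a group. Red and blue points are the 1392 genes higher and the 1798 genes lower past 2-fold, grey points are the rest, and the line marks equal levels. MMP1, CXCL8, IL1B and CXCL5 lie far above the line at high CPM, and DCN and FBLN1 far below it.

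The shares given for sets of 10 genes are percents of library sizes adjusted for composition, not of raw counts. The 10 genes with the largest gains in CPM held 1.50% to 1.73% in control and 7.47% to 8.31% in senescent libraries. They included MMP1, an interstitial collagenase, the chemokines CXCL8 and CXCL5, the collagen VI chain COL6A2, the intermediate filament VIM, the cytokine IL1B, the hormone stanniocalcin (STC1), the plasminogen activator PLAU and the insulin-like growth factor carrier IGFBP5. MMP1 had 192, 192 and 237 CPM in the control libraries and 16223, 13448 and 13077 CPM in the senescent libraries, a log2FC of 6.11 ± 0.15 (adjusted p = 7.33e-18). STC1 had 74.9, 85.2 and 70.6 CPM in the control libraries and 4873, 4546 and 4027 CPM in the senescent libraries, a log2FC of 5.86 ± 0.15 (adjusted p = 7.33e-18). The groups of both genes were far apart. IGFBP5 had 5805, 4982 and 3447 CPM in the control libraries and 8454, 8364 and 8144 CPM in the senescent libraries, a log2FC of 0.81 ± 0.15 (adjusted p = 7.48e-05). IGFBP5 was already abundant in control cells, where replicate 3 was lowest, and its groups still did not overlap.

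The 10 genes with the largest losses in CPM fell from between 3.53% and 3.97% to between 1.02% and 1.06% of the adjusted library size. They were the collagen chains COL1A1, COL1A2, COL3A1 and COL12A1, the proteoglycan decorin (DCN), fibulin 1 (FBLN1), the actin-binding protein transgelin (TAGLN), the disulphide-forming oxidase QSOX1, and EEF1A1 and TPT1, which serve translation. DCN had 2805, 3067 and 3255 CPM in the control libraries and 7.41, 7.97 and 7.80 CPM in the senescent libraries, a log2FC of -8.62 ± 0.13 (adjusted p = 3.72e-21). FBLN1 had 1355, 1508 and 1337 CPM in the control libraries and 14.2, 11.4 and 11.2 CPM in the senescent libraries, a log2FC of -6.83 ± 0.14 (adjusted p = 5.55e-19). Every senescent library lay far below every control library in both genes. COL1A2 had 8221, 8159 and 5576 CPM in the control libraries and 681, 796 and 647 CPM in the senescent libraries, and COL1A1, which encodes the other chain of collagen I, had 8993, 8259 and 5549 CPM in the control libraries and 3338, 3390.3 and 2895 CPM in the senescent libraries. The log2FC was -3.37 ± 0.15 (adjusted p = 7.29e-14) for COL1A2 and -1.24 ± 0.18 (adjusted p = 3.76e-06) for COL1A1. For COL1A1, COL1A2 and COL12A1 control replicate 3 was the lowest control library and still lay above every senescent library. TPT1 had 3737, 4294 and 5959.8 CPM in the control libraries and 2229, 2158 and 2197 CPM in the senescent libraries, and there control replicate 3 was the highest.

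**Figure D2:**
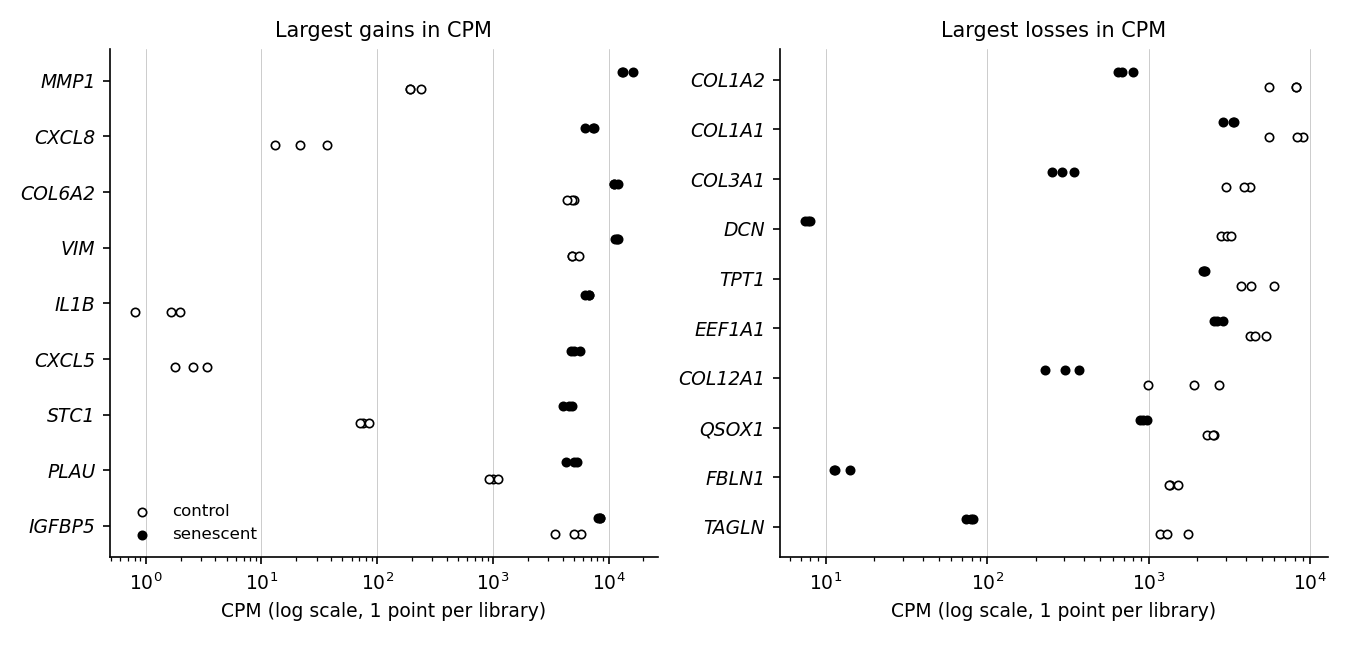
CPM in each library (log scale) of 9 of the 10 genes with the largest gain and of the 10 with the largest loss of CPM, with open points for the 3 control and filled points for the 3 senescent libraries. The groups overlap for none of the genes shown. For CXCL8, IL1B, CXCL5 and DCN every senescent library is more than 100-fold from every control library.

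Among genes at 1 CPM or more in every library of the higher group, the 15 with the largest fitted rises included SERPINA9, the colony-stimulating factors CSF2 and CSF3, IL1B, CXCL5, the elastase inhibitor PI3 (elafin), the proteases MMP7 and MMP12, the protease inhibitor SERPINB4 and IL36RN, which blocks the interleukin 36 receptor. The others were HEPHL1, a copper-dependent ferroxidase, DCDC2C, a protein with doublecortin domains, the transcription factor SOX17, and the non-coding RNAs LINC02154 and LINC02392. PI3 had 0, 0.201 and 0.0498 CPM in the control libraries and 255, 221 and 254 CPM in the senescent libraries, a log2FC of 11.36 ± 0.27 (adjusted p = 3.98e-18). LINC02154 had 0.121, 0.161 and 0 CPM in the control libraries and 248, 215 and 229 CPM in the senescent libraries, a log2FC of 11.08 ± 0.28 (adjusted p = 7.99e-18). HEPHL1 had no count in control libraries and 20.2, 21.1 and 21.9 CPM in senescent libraries, and was at least 141-fold higher. SOX17 likewise had no count in control libraries and 11.2, 8.40 and 13.6 CPM in senescent libraries, and was at least 74.2-fold higher. DCDC2C (at least 78.4-fold higher) and LINC02392 (at least 75.2-fold higher) were without a count in every control library. SERPINB4, with 1 count in control cells, was 5410.0-fold higher, 95% counting interval 970.4 to 213700.0, and it is closely similar in sequence to its neighbour SERPINB3, between which reads could be split. CSF2 went from 0.0734 ± 0.0644 to 261 ± 21.1 CPM (log2FC 11.71 ± 0.27).

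The 15 largest fitted falls included ADH1B (alcohol dehydrogenase), the flavin-containing monooxygenase FMO2, FGL2 (a fibrinogen-like prothrombinase), the chemokine CXCL12, the prostacyclin synthase PTGIS, the matrix proteins ASPN, OGN and COL14A1, the phospholipase PLAAT4, the protease FAM111B, the potassium channel KCNK2, the sphingolipid enzyme SPTLC3, SHISA3 and the non-coding LOC100505501. CXCL12 had 78.4, 83.2 and 95.7 CPM in the control libraries and 0, 0.0623 and 0 CPM in the senescent libraries, and was 4294-fold lower, 95% counting interval 770.3 to 169600.0. PTGIS had 84.6, 79.4 and 58.3 CPM in the control libraries and 0, 0.0623 and 0 CPM in the senescent libraries, and was 3792-fold lower, 95% counting interval 680.2 to 149800.0. A single senescent library held 1 count of each. COL14A1 had 217, 202 and 137 CPM in the control libraries and 0.247, 0.187 and 0.165 CPM in the senescent libraries, a log2FC of -9.82 ± 0.28 (adjusted p = 6.44e-17). ASPN had 13.2, 16.9 and 19.8 CPM in control libraries and no count in senescent libraries, and was at least 88.9-fold lower. PLAAT4 (at least 40.6-fold lower), FAM111B (at least 39.6-fold lower), LOC100505501 (at least 29.2-fold lower), SPTLC3 (at least 20.6-fold lower) and OGN (at least 18.1-fold lower) were also without a count in senescent libraries. KCNK2 was 908-fold lower, 95% counting interval 163 to 35880.0, and SHISA3 was 817-fold lower, 95% counting interval 226 to 6747.

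Genes were next grouped in 55 lists by what they are known to do. The lists were written by hand, and the shares of all tested genes that were higher (32.5%) and lower (36.0%) stand as the background for each count below. The plot of the lists shows every tested member.

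**Figure D3:**
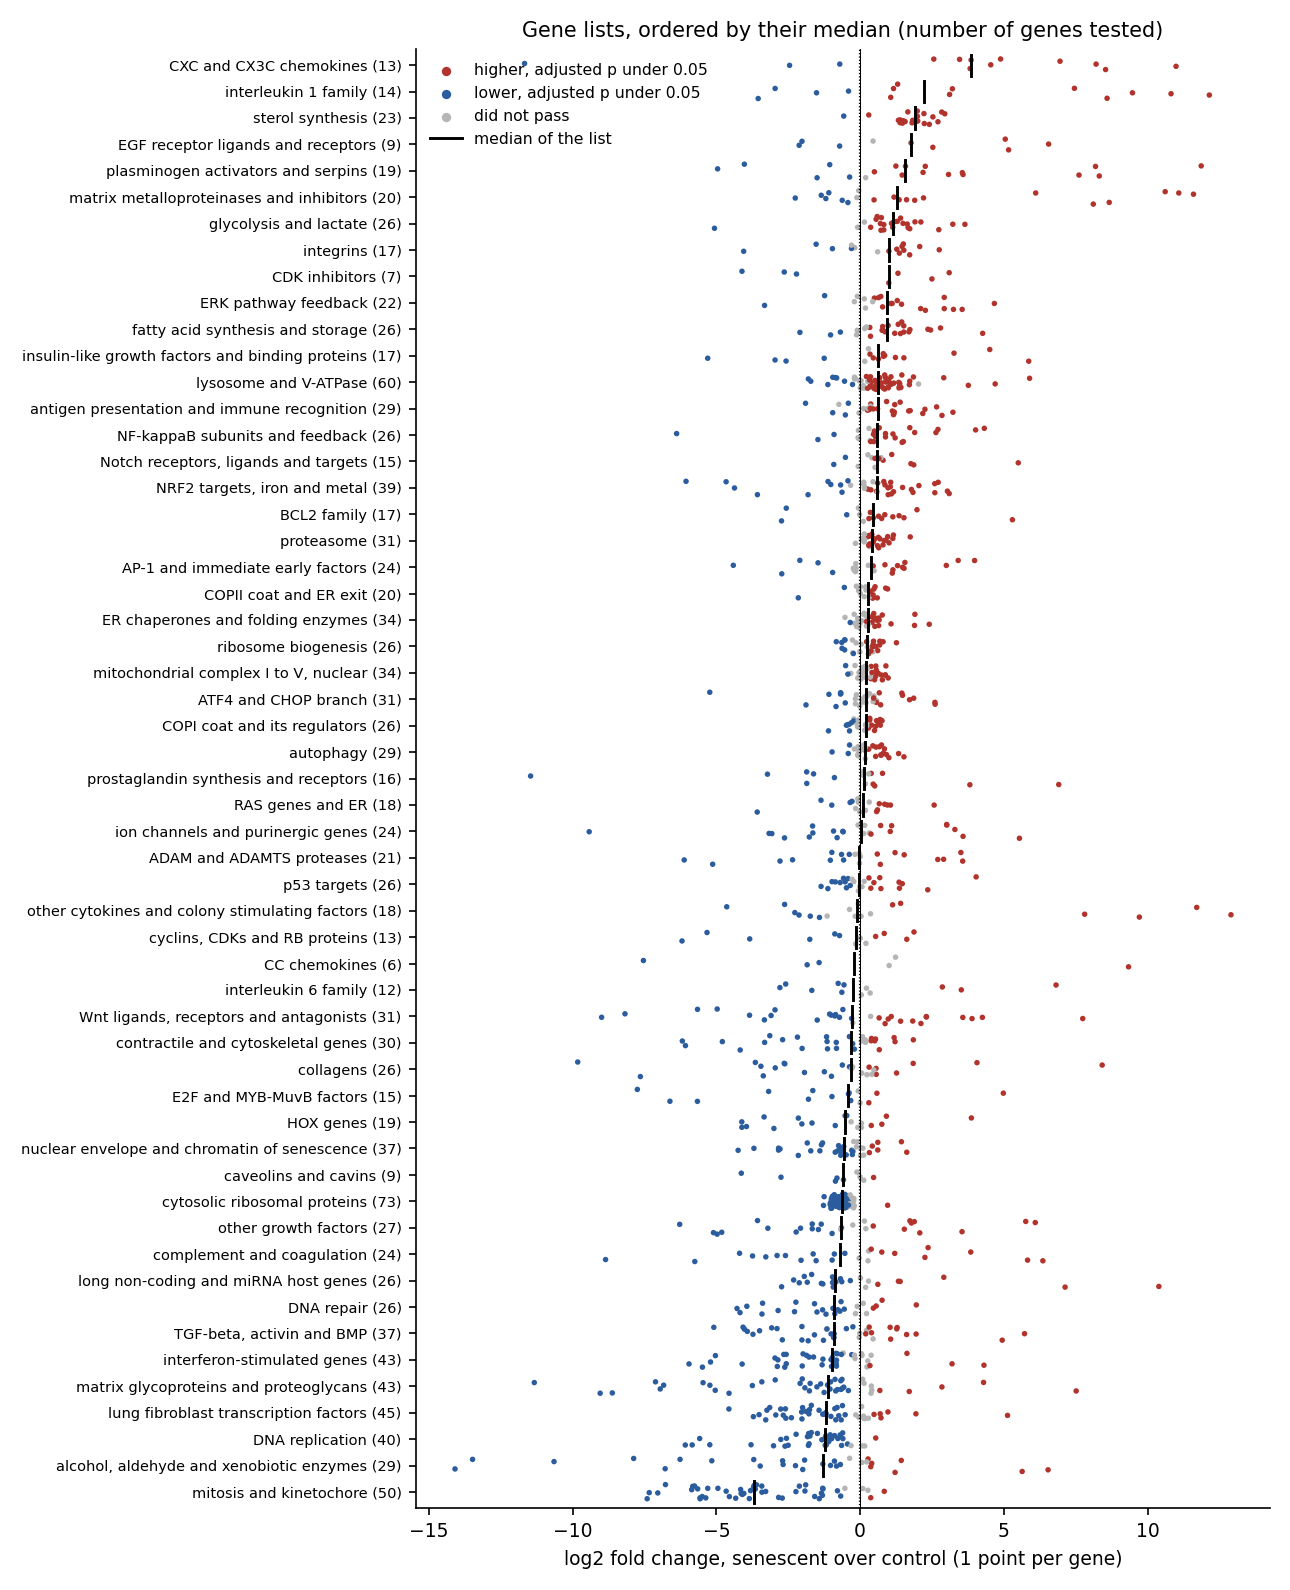
Log2 fold change of each tested member of the 55 gene lists, ordered by the median of the list (black bar), with the number of genes tested in brackets. Red points rose, blue points fell and grey points did not pass, and the dotted line marks the median of all genes at -0.05. Fold changes of genes without a count in one group are fitted values that depend on the prior count. The lists of CXC and CX3C chemokines, interleukin 1 genes and sterol synthesis stand at the top and the list of mitosis and kinetochore genes at the bottom.

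Genes of cell division fell almost throughout. Of 50 mitosis and kinetochore genes tested, 45 fell and 2 rose, with a median log2FC of -3.68, and 40 fell past 2-fold. NEK2, SPC25, KIF20A, NCAPG and MKI67 were at or under 3 counts in every senescent library. They passed the filter on low counts only through control cells and had to differ. The largest falls were in NEK2 (222-fold lower, 95% counting interval 39.6 to 8799), a centrosome kinase, and in KIF20A (log2FC -7.34 ± 0.41), a cytokinesis motor. TOP2A, the topoisomerase that untangles sister chromatids, had 63.5, 60.9 and 62.2 CPM in the control libraries and 3.09, 3.11 and 3.08 CPM in the senescent libraries (log2FC -4.33 ± 0.19). CCNB2, a mitotic cyclin, had 11.004, 8.41 and 12.4 CPM in the control libraries and 0.617, 0.560 and 0.604 CPM in the senescent libraries (log2FC -4.14 ± 0.27). PLK1, a master kinase of mitosis, had 11.8, 10.3 and 11.7 CPM in the control libraries and 0.679, 0.311 and 0.440 CPM in the senescent libraries (log2FC -4.55 ± 0.28). In all of these the groups were well apart. The fall was uneven. CCNB1 (log2FC -1.42 ± 0.12), the other mitotic cyclin, and TPX2 (log2FC -1.89 ± 0.12) kept more of their level, and AURKA (log2FC 0.094 ± 0.14, adjusted p = 0.554), the kinase that TPX2 activates, did not pass. INCENP (log2FC 0.27 ± 0.15, adjusted p = 0.116) did not pass either. The 2 genes that rose were ESPL1 (log2FC 0.84 ± 0.20), the separase that cuts cohesin, and ECT2 (log2FC 0.37 ± 0.11), an exchange factor of cytokinesis. ECT2 missed the threshold in 1 of 12 alternatives, whose adjusted p ranged from 0.00058 to 0.0933: under upper quartile scaling (0.0933).

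The upstream bases of mitotic genes are shown because a pair of short motifs recurs in them. The cell cycle homology region (CHR, TTTGAA) is a site bound by the DREAM and MYB-MuvB complexes, and CCAAT boxes are bound by NF-Y. Below are the 250 bases before the start of CCNB2 (chr15:59104896-59105145, plus strand) and of PLK1 (chr16:23678639-23678888, plus strand), from RefSeq on GRCh38.p14, with CHR and CCAAT matches on either strand in capitals.
CCNB2: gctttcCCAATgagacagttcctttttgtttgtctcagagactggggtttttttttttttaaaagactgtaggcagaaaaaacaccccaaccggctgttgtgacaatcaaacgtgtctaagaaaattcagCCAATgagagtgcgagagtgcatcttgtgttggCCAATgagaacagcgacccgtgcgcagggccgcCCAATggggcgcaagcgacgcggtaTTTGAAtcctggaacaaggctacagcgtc
PLK1: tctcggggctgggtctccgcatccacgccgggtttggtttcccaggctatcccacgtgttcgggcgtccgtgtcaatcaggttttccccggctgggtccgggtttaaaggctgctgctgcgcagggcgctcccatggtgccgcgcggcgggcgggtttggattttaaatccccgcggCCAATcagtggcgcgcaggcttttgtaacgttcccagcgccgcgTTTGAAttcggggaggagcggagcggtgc
In both the TTTGAA match runs from 29 to 24 bases before the start. A CHR match on either strand was present in 24 of 45 mitotic promoters (53.3%), against 8.53% of the 11104 promoters of tested genes, and CCAAT in 71.1% against 34.5%. Among promoters of DNA replication genes the CHR share was 2.78% (1 of 36) and the CCAAT share 55.6%. A match is a description of the sequence and was not tested as a site.

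Replication genes fell too, by less. Of 40 tested, 36 fell and 1 rose, with a median log2FC of -1.21. MCM10 and POLE2, at or under 3 counts in every senescent library, passed the filter only through control cells and had to differ. The largest falls were in MCM10 (log2FC -6.08 ± 0.42), which starts the replicative helicase, TK1 (log2FC -5.84 ± 0.28), a thymidine kinase, and POLE2 (52.1-fold lower, 95% counting interval 17.6 to 255), a subunit of DNA polymerase epsilon. The helicase subunits did not fall equally: MCM6 (log2FC -2.23 ± 0.091), MCM3 (log2FC -1.80 ± 0.14) and MCM2 (log2FC -1.75 ± 0.13) fell more than MCM5 (log2FC -0.78 ± 0.11). The sliding clamp PCNA (log2FC -1.17 ± 0.15) and RRM2 (log2FC -2.76 ± 0.16), the S-phase subunit of ribonucleotide reductase, fell, while RRM2B (log2FC 1.37 ± 0.10), its p53-dependent counterpart, rose. POLA2 (log2FC 0.54 ± 0.12), a subunit of primase-polymerase, was the member that rose, and RFC2 (log2FC -0.31 ± 0.14, adjusted p = 0.0532) was the most abundant that did not pass.

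The regulators of the cycle moved in both directions. Of 13 cyclins, CDKs and RB proteins, 6 fell and 4 rose. The D cyclins, which respond to growth signals, rose in CCND1 (log2FC 1.87 ± 0.093), CCND3 (log2FC 0.84 ± 0.097) and CCND2 (log2FC 0.54 ± 0.12), and their partners fell in CDK4 (log2FC -0.72 ± 0.10) and CDK6 (log2FC -0.88 ± 0.20). Among E cyclins CCNE1 (log2FC 1.62 ± 0.17) rose and CCNE2 (log2FC -5.33 ± 0.47) fell. CDK1, the mitotic kinase, had 12.7, 12.9 and 19.6 CPM in the control libraries and 0.0617, 0.374 and 0.165 CPM in the senescent libraries (log2FC -6.20 ± 0.36). The retinoblastoma protein RB1 (log2FC 0.0046 ± 0.11, adjusted p = 0.974) and its relative RBL2 (log2FC 0.20 ± 0.12, adjusted p = 0.135) did not pass, and RBL1 (log2FC -1.75 ± 0.18) fell. Among E2F and MYB-MuvB factors 3 of 15 rose and 10 fell, and the atypical E2F repressors moved apart: E2F7 had 8.42, 5.75 and 3.23 CPM in the control libraries and 204, 187 and 167 CPM in the senescent libraries (log2FC 4.98 ± 0.23), while E2F8 had 1.57, 1.17 and 1.39 CPM in control libraries and no count in senescent libraries (at least 7.37-fold lower). The groups overlapped for neither. MYBL2 (log2FC -6.62 ± 0.33), E2F2 (67.3-fold lower, 95% counting interval 11.8 to 2685) and FOXM1 (log2FC -3.18 ± 0.18) fell, and E2F4 (log2FC 0.001 ± 0.097, adjusted p = 0.993) did not pass.

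Of 7 CDK inhibitor genes, 4 rose and 3 fell, so the 2 families of inhibitors were each divided. Of the INK4 genes CDKN2D (log2FC 1.316 ± 0.17) rose beside CDKN2A and CDKN2B, and CDKN2C had 11.4, 12.6 and 16.5 CPM in the control libraries and 0.803, 0.809 and 0.714 CPM in the senescent libraries (log2FC -4.11 ± 0.23). Of the CIP/KIP genes only CDKN1A rose, while CDKN1B (log2FC -2.21 ± 0.16) (p27) and CDKN1C (log2FC -2.64 ± 0.24) (p57) fell. CDKN1B had 63.5, 60.2 and 65.5 CPM in the control libraries and 16.977, 13.1 and 10.7 CPM in the senescent libraries, and its groups did not overlap.

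The p53 target list did not move one way. Of 26 genes, 10 rose and 10 fell, with a median of -0.038 against -0.05 for all genes. GDF15, a stress hormone, had 41.3, 48.5 and 52.048 CPM in the control libraries and 833, 716 and 774 CPM in the senescent libraries (log2FC 4.03 ± 0.16). PLK3 (log2FC 2.35 ± 0.11), TNFRSF10B (log2FC 1.47 ± 0.11) (a TRAIL death receptor) and PMAIP1 (log2FC 1.35 ± 0.16) (NOXA) also rose. TP53INP1 (log2FC -1.36 ± 0.20) fell most, MDM2 (log2FC -0.34 ± 0.13), the ligase that degrades p53, and CCNG1 (log2FC -0.58 ± 0.12) fell, and PLK2 (log2FC -0.22 ± 0.16, adjusted p = 0.245) did not pass. MDM2 missed the threshold in 5 of 12 alternatives, whose adjusted p ranged from 0.00225 to 0.179: in a fit of only the 6 libraries (0.0847) and without control replicate 1 (0.095), control replicate 2 (0.0521), senescent replicate 1 (0.0508) or senescent replicate 3 (0.179).

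Of 26 DNA repair genes 18 fell and 4 rose. The larger falls included genes of homologous recombination and the Fanconi pathway, such as RAD54L (log2FC -4.28 ± 0.41), BRIP1 (log2FC -4.18 ± 0.33), EXO1 (log2FC -3.94 ± 0.35) and FANCD2 (log2FC -3.39 ± 0.29). The Ku proteins of end joining, XRCC5 (log2FC -0.10 ± 0.072, adjusted p = 0.21) and XRCC6 (log2FC -0.16 ± 0.071, adjusted p = 0.0504), did not pass. ATR (log2FC 0.56 ± 0.14) and DDB2 (log2FC 0.76 ± 0.15) rose, as did ERCC1 (log2FC 1.95 ± 0.11), whose exons overlap those of POLR1G on the other strand by 28.6%.

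Chromatin and nuclear envelope genes of the kind linked to senescence fell in 23 of 37 cases and rose in 6. ASF1B (log2FC -4.24 ± 0.39) and CHAF1B (log2FC -2.84 ± 0.24), histone chaperones of S phase, HMGB2 (log2FC -2.84 ± 0.18), LBR (log2FC -1.84 ± 0.11) and EZH2 (log2FC -1.35 ± 0.17) fell, while SUZ12 (log2FC -0.23 ± 0.11, adjusted p = 0.0627), a partner of EZH2, did not pass. HMGB2 had 42.039, 43.7 and 70.7 CPM in the control libraries and 7.72, 7.59 and 6.54 CPM in the senescent libraries. HMGA1, an architectural protein of senescence-associated heterochromatin foci, had 569, 482 and 514 CPM in the control libraries and 1683, 1452 and 1683 CPM in the senescent libraries (log2FC 1.62 ± 0.10), and HMGA2 (log2FC 1.44 ± 0.11) rose too. Of the lamins, LMNA (log2FC -0.27 ± 0.11) fell by little and LMNB2 (log2FC 0.0083 ± 0.12, adjusted p = 0.955) did not pass. The macroH2A genes moved apart, with MACROH2A2 (log2FC -2.15 ± 0.15) lower and MACROH2A1 (log2FC 0.32 ± 0.086) higher. LMNA missed the threshold in 7 of 12 alternatives, whose adjusted p ranged from 0.00186 to 0.126: with DESeq2 (0.0598), under RLE size factors (0.0613), with no filter beyond 1 count (0.0583), in a fit of only the 6 libraries (0.0994) and without control replicate 3 (0.126), senescent replicate 1 (0.123) or senescent replicate 2 (0.119). MACROH2A1 missed the threshold in 1 of 12 alternatives, whose adjusted p ranged from 5.55e-05 to 0.106: under upper quartile scaling (0.106).

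Transcripts of interleukin 1 ligands, antagonists, receptors and signalling proteins differed between the groups, in both directions. Of 19 listed genes of the family 14 passed the filter on low counts, 10 rose and 4 fell. IL1RN, IL36B and IL36RN, at 0 or 1 count in control cells, passed that filter only through senescent cells and had to differ. The ligands tested rose: beside IL1A and IL1B, IL36B (253-fold higher, 95% counting interval 44.8 to 10050.0) and IL33 (log2FC 3.11 ± 0.29). IL1A had 0.161, 0.443 and 0.249 CPM in the control libraries and 196, 232 and 197 CPM in the senescent libraries. The antagonists IL1RN (at least 16.5-fold higher) and IL36RN (at least 77.4-fold higher) rose as well, from no count in control libraries. On the receiving side IL1R1, the signalling receptor, had 463, 425 and 309 CPM in the control libraries and 61.3, 47.8 and 44.999 CPM in the senescent libraries (log2FC -2.96 ± 0.14), and CASP1 (log2FC -3.55 ± 0.13), the protease that matures IL-1β, IRAK4 (log2FC -1.52 ± 0.12) and MYD88 (log2FC -0.40 ± 0.11) fell. IRAK2 (log2FC 3.21 ± 0.15), IL1RAP (log2FC 1.31 ± 0.17) and IRAK3 (log2FC 1.06 ± 0.22), an inhibitory kinase, rose.

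In the interleukin 6 family 3 ligands rose and several receptors fell. Of 12 genes tested 3 rose and 6 fell. IL11 had 6.01, 5.83 and 8.71 CPM in the control libraries and 833, 631 and 835 CPM in the senescent libraries (log2FC 6.81 ± 0.29), and LIF had 69.0, 83.0 and 98.1 CPM in the control libraries and 947, 1047 and 874 CPM in the senescent libraries (log2FC 3.52 ± 0.17). Both stood well apart from control in every library. The receptors LIFR (log2FC -2.79 ± 0.16), IL11RA (log2FC -2.59 ± 0.21), IL6R (log2FC -1.68 ± 0.12) and IL6ST (log2FC -0.64 ± 0.15) (gp130) and the transcription factor STAT3 (log2FC -0.76 ± 0.095) fell, whereas OSMR (log2FC 0.042 ± 0.16, adjusted p = 0.826) and the feedback inhibitor SOCS3 (log2FC 0.35 ± 0.18, adjusted p = 0.0879) did not pass.

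Among other cytokines 6 of 18 rose and 6 fell. TNFSF15 had 10.8, 9.13 and 7.41 CPM in the control libraries and 2173, 2122 and 1869.9 CPM in the senescent libraries (log2FC 7.81 ± 0.23), the largest rise in CPM on this list. IL24 was without a count in control libraries (at least 36.1-fold higher), and KITLG (log2FC 1.41 ± 0.14) and MIF (log2FC 1.13 ± 0.14) rose. Of colony-stimulating factors CSF2 and CSF3 rose while CSF1 (log2FC -1.41 ± 0.13), the macrophage factor, fell, as did the other ligand of its receptor, IL34 (log2FC -4.64 ± 0.30). IL15 (log2FC -1.73 ± 0.25), IL16 (log2FC -2.63 ± 0.33) and FLT3LG (log2FC -2.13 ± 0.19) fell, and IL32 (log2FC 0.034 ± 0.16, adjusted p = 0.858) did not pass.

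Chemokines of the CXC class rose with few exceptions. Of 17 CXC and CX3C genes listed 13 passed the filter, 10 rose and 3 fell, with a median of 3.86. PF4 and PPBP, at 5 and 3 counts in control cells, passed only through senescent cells and had to differ. CXCL12, at 1 count in senescent cells, passed only through control cells and had to differ too. The median is the value of PF4. CXCL5 had 1.77, 2.53 and 3.38 CPM in the control libraries and 5692, 5015 and 4758 CPM in the senescent libraries (log2FC 10.99 ± 0.27), and CXCL8 had 13.1, 21.5 and 36.7 CPM in the control libraries and 7301, 7435 and 6238 CPM in the senescent libraries (log2FC 8.21 ± 0.39). Control replicate 3 held the highest control value of both. CXCL1 had 18.5, 27.0 and 50.9 CPM in the control libraries and 900.1, 974 and 958 CPM in the senescent libraries (log2FC 4.89 ± 0.32). These ligands of the neutrophil receptors CXCR1 and CXCR2 were joined by CXCL3 (log2FC 8.54 ± 0.24), CXCL2 (log2FC 6.95 ± 0.19) and CXCL6 (log2FC 2.56 ± 0.21), and CXCL1, CXCL2 and CXCL3 are similar enough in sequence for reads to be split among them. The CXCR3 ligands CXCL10 (log2FC 3.83 ± 0.26) and CXCL11 (log2FC 3.46 ± 0.48) rose. CXCL12, CXCL16 (log2FC -2.45 ± 0.34) and CX3CL1 (log2FC -0.71 ± 0.20) fell. Of CC chemokines 6 of 16 passed the filter. CCL20, the ligand of CCR6, had 0, 0.0805 and 0.0995 CPM in the control libraries and 35.3, 43.6 and 44.8 CPM in the senescent libraries (log2FC 9.34 ± 0.41), while CCL2, the monocyte attractant, had 93.8, 134 and 224 CPM in the control libraries and 24.0, 50.2 and 51.5 CPM in the senescent libraries (log2FC -1.84 ± 0.37). CCL11 (at least 6.53-fold lower) and CCL7 (log2FC -1.43 ± 0.40) fell, and CCL26 (log2FC 1.01 ± 0.78, adjusted p = 0.259) did not pass.

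Chemokine promoters are shown because the NF-κB motif recurs in them. They are the 250 bases before the start of CXCL1 (chr4:73869143-73869392, plus strand), CXCL5 (chr4:73998678-73998927, minus strand) and CXCL8 (chr4:73740319-73740568, plus strand), from RefSeq on GRCh38.p14. Capitals mark NF-κB matches in CXCL1 and CXCL5 and the AP-1 match (TGANTCA) in CXCL8, on either strand.
CXCL1: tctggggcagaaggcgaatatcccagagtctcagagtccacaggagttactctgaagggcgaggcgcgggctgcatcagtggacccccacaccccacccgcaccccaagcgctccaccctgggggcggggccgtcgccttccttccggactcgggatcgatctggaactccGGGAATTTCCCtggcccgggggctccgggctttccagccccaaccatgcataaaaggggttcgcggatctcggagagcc
CXCL5: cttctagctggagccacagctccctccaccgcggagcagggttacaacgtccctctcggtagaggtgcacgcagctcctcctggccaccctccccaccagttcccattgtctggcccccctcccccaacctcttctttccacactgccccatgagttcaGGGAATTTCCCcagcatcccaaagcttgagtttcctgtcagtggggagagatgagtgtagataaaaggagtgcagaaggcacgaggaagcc
CXCL8: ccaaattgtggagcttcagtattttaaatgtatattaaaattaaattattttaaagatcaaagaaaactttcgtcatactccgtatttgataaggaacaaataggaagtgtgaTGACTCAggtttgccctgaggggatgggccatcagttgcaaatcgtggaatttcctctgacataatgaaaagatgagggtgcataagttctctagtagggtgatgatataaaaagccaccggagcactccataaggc
Both CXCL1 and CXCL5 hold the overlapping matches GGGAATTTCC and GGAATTTCCC, from 79 to 69 bases before the start in CXCL1 and from 91 to 81 in CXCL5. The 250 bases of CXCL8 hold no exact match to the NF-κB consensus used here. A match was present in 7 of 10 CXC and CX3C promoters (70.0%) and in 8 of 23 promoters of NF-κB subunit and feedback genes (34.8%), against 5.92% of promoters of tested genes. AP-1 matches were present in 20.0% of the CXC and CX3C promoters and in 4.17% of those of tested genes, and 7.30% of the promoters of genes higher past 2-fold held one.

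**Figure D4:**
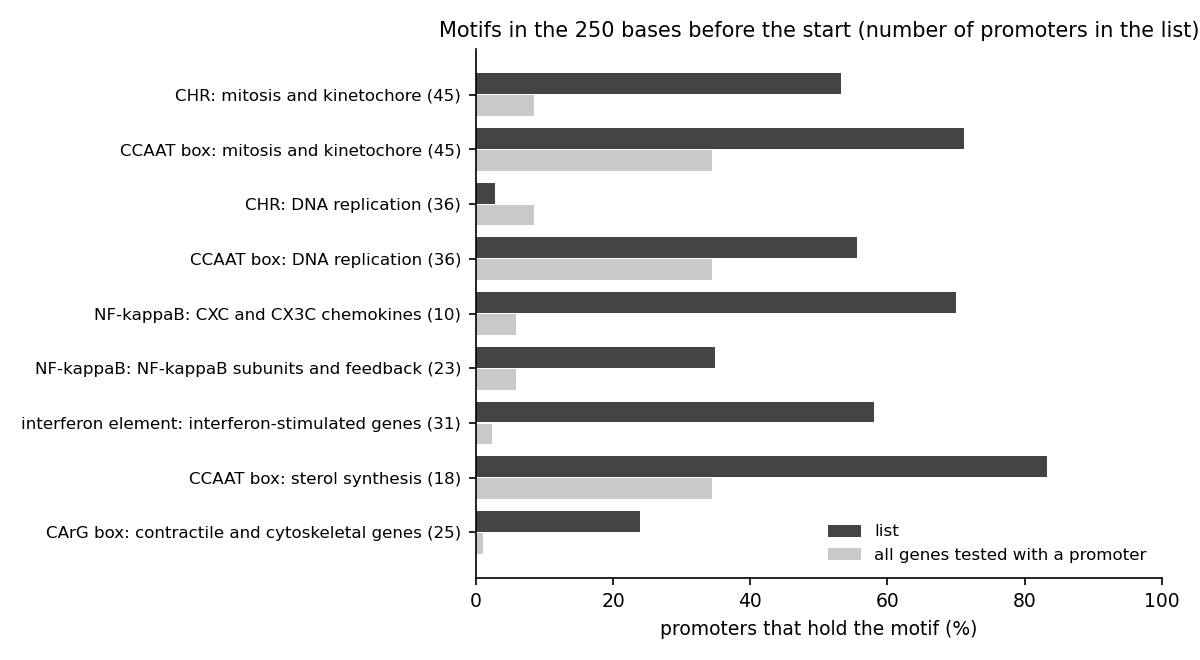
Percent of promoters (250 bases before the start, both strands) that hold a motif, in a gene list (dark bars, number of promoters in brackets) and in the 11104 promoters of genes tested (light bars). The CHR share is 53.3% in mitotic genes and 8.53% in tested genes, and the NF-κB share is 70.0% in CXC and CX3C chemokines and 5.92% in tested genes.

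Tested members shared a direction within each of the 4 chromosomal clusters examined. On chromosome 4 (GRCh38.p14) 10 of the 13 chemokine and EGF ligand genes from CXCL8 to BTC passed the filter and all 10 rose, and the one tested gene between them, MTHFD2L (log2FC 1.73 ± 0.15), a mitochondrial folate enzyme, rose too. On chromosome 2 the 5 of 9 interleukin 1 genes that passed the filter rose. On chromosome 11 the 6 of 9 MMP genes that passed rose, as did the pseudogene WTAPP1 (log2FC 5.65 ± 0.31). WTAPP1 spans MMP1 and runs into MMP3. Of the exonic bases of MMP1, 8.1% are shared on the other strand, mainly with WTAPP1. Whether counts of WTAPP1 include reads of MMP1 was not tested. In the CCL cluster on chromosome 17 the 3 of 6 genes that passed fell. Members of a cluster are not independent, and a gene that passes the filter only through its higher group had to differ.

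**Figure D5:**
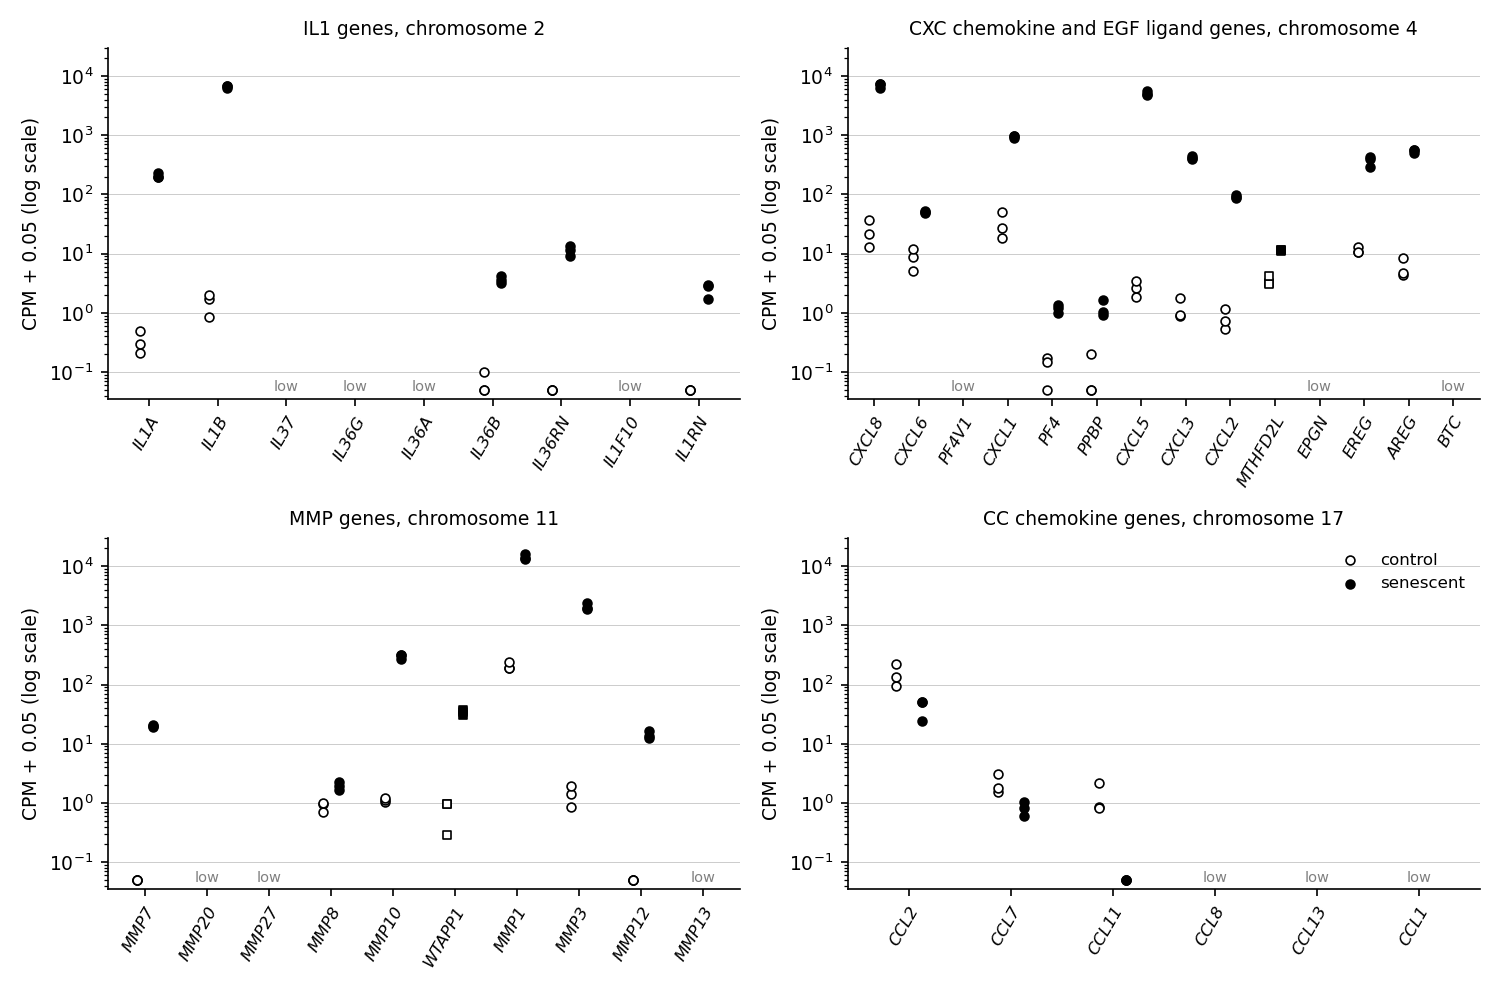
CPM + 0.05 (log scale) in each library for genes of 4 chromosomal clusters in their order along the chromosome, with open symbols for control and filled symbols for senescent libraries. Circles are members and squares are other tested genes within the span of the cluster, and "low" marks members under the filter on low counts. Tested members of the IL1, CXC and MMP clusters are higher in senescent libraries, and CCL2, CCL7 and CCL11 are lower.

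Most NF-κB subunit and feedback genes rose. Of 26 subunit and feedback genes 18 rose and 3 fell, with a median of 0.60. The subunits NFKB2 (log2FC 1.46 ± 0.10), RELB (log2FC 1.22 ± 0.15) and RELA (log2FC 0.66 ± 0.10) rose, and NFKB1 (log2FC -0.06 ± 0.13, adjusted p = 0.692) and REL (log2FC 0.34 ± 0.17, adjusted p = 0.0807) did not pass. Inhibitors rose too, among them TNFAIP3 (log2FC 1.50 ± 0.17) (A20), TNIP1 (log2FC 2.71 ± 0.091) and NFKBIA (log2FC 0.49 ± 0.19), as did the partner factor CEBPB (log2FC 0.88 ± 0.14), while CEBPD (log2FC -1.47 ± 0.16) fell. NFKBIA missed the threshold in 6 of 12 alternatives, whose adjusted p ranged from 3.49e-06 to 0.17: in a fit of only the 6 libraries (0.104), under upper quartile scaling (0.137) and without control replicate 1 (0.17), control replicate 2 (0.133), senescent replicate 1 (0.0669) or senescent replicate 3 (0.0797). The adhesion molecules that NF-κB is known to drive in endothelium split: ICAM1 had 76.5, 88.2 and 66.8 CPM in the control libraries and 1164, 1333 and 1252 CPM in the senescent libraries (log2FC 4.02 ± 0.13), and VCAM1 had 297, 280.3 and 303 CPM in the control libraries and 3.70, 3.49 and 3.35 CPM in the senescent libraries (log2FC -6.38 ± 0.15). The groups overlapped for neither.

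Most feedback genes of the RAS to ERK pathway rose. Of 22 genes tested 15 rose and 2 fell, with a median of 0.93. DUSP4 had 4.68, 5.95 and 4.78 CPM in the control libraries and 129, 129.6 and 135 CPM in the senescent libraries (log2FC 4.67 ± 0.13), and DUSP6 had 92.8, 103 and 104 CPM in the control libraries and 799, 764 and 717 CPM in the senescent libraries (log2FC 2.92 ± 0.12). These phosphatases act on ERK in the nucleus and in the cytoplasm. SPRY2 (log2FC 2.93 ± 0.12) and SPRY4 (log2FC 2.27 ± 0.12) rose and SPRY1 (log2FC -3.32 ± 0.16), of the same family of inhibitors, fell. PEA15 (log2FC 0.19 ± 0.091, adjusted p = 0.075) was the most abundant that did not pass. Of RAS genes and kinases 7 of 18 rose and 5 fell, and NRAS (log2FC -0.99 ± 0.089) and RRAS2 (log2FC -1.36 ± 0.13) were among the falls and MAP2K1 (log2FC 0.95 ± 0.085) and MAPK3 (log2FC 0.67 ± 0.095) among the rises. Counts of HRAS and ESR1 could include reads of the fusion, which were not separated.

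Immediate early and AP-1 factors were mixed, with 11 of 24 higher and 5 lower. FOSL1 (log2FC 1.56 ± 0.15), FOSB (log2FC 3.41 ± 0.49), JUN (log2FC 0.86 ± 0.11), MAFF (log2FC 3.00 ± 0.17) and NR4A3 (log2FC 3.98 ± 0.24) rose, and FOS (log2FC -1.46 ± 0.51), FOSL2 (log2FC -0.96 ± 0.13), KLF4 (log2FC -4.41 ± 0.17) and NR4A2 (log2FC -2.73 ± 0.25) fell. EGR1 (log2FC -0.24 ± 0.23, adjusted p = 0.362) and JUND (log2FC -0.15 ± 0.12, adjusted p = 0.247) did not pass. FOS missed the threshold in 1 of 12 alternatives, whose adjusted p ranged from 8.35e-06 to 0.0671: without senescent replicate 3 (0.0671).

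Several matrix metalloproteinases (MMPs) rose from near 0. Of 20 MMP and TIMP genes 12 rose and 6 fell. MMP3, stromelysin, had 1.37, 0.805 and 1.89 CPM in the control libraries and 2416, 1903 and 1946 CPM in the senescent libraries (log2FC 10.61 ± 0.25). MMP10 had 1.01, 1.09 and 1.14 CPM in the control libraries and 319, 265 and 314 CPM in the senescent libraries (log2FC 8.11 ± 0.17), and MMP9, a gelatinase, had 0.0403, 0.161 and 0.0498 CPM in the control libraries and 47.3, 31.0 and 34.1 CPM in the senescent libraries (log2FC 8.66 ± 0.33). All 3 were near or below 2 CPM in every control library. MMP7 (at least 133-fold higher) and MMP12 (at least 93.5-fold higher) had no count there. These 2 genes passed the filter on low counts only through senescent cells and had to differ. MMP14 (log2FC 2.21 ± 0.11), which activates pro-MMP2 at the cell surface, rose, while MMP2 (log2FC -0.43 ± 0.11) fell slightly. Of the inhibitors TIMP1 (log2FC 1.61 ± 0.12) rose, TIMP3 (log2FC -2.26 ± 0.13) and TIMP4 (log2FC -1.09 ± 0.25) fell and TIMP2 (log2FC -0.11 ± 0.11, adjusted p = 0.354) did not pass.

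The ADAM and ADAMTS proteases were mixed, 8 of 21 higher and 9 lower. ADAMTS14 (log2FC 3.57 ± 0.19), ADAM19 (log2FC 3.50 ± 0.15), ADAM12 (log2FC 2.90 ± 0.14) and the aggrecanase ADAMTS4 (log2FC 2.701 ± 0.17) rose, ADAMTS8 (log2FC -6.12 ± 0.21) and ADAMTS15 (log2FC -5.13 ± 0.29) fell, and ADAM9 (log2FC 0.0069 ± 0.086, adjusted p = 0.947) did not pass. ADAM17 (log2FC -0.38 ± 0.096) and ADAM10 (log2FC -0.57 ± 0.089), the main shedding enzymes, fell slightly. In the plasminogen system and the serpins 13 of 19 rose and 5 fell. SERPINB2, an inhibitor of plasminogen activators, had 6.65, 5.99 and 6.17 CPM in the control libraries and 2204, 1638 and 1652 CPM in the senescent libraries (log2FC 8.19 ± 0.21). PLAT (log2FC 1.24 ± 0.13), PLAUR (log2FC 3.07 ± 0.11) and SERPINA1 (log2FC 7.61 ± 0.35) rose, SERPINF1 (log2FC -4.03 ± 0.13) (PEDF), SERPING1 (log2FC -4.96 ± 0.13) (the C1 inhibitor) and SERPINH1 (log2FC -1.06 ± 0.11) (the collagen chaperone HSP47) fell, and SERPINB6 (log2FC 0.20 ± 0.11, adjusted p = 0.138) did not pass.

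Growth factor genes moved in both directions within families. Of the insulin-like growth factor genes 11 of 17 rose and 4 fell: PAPPA2 (log2FC 4.51 ± 0.38) and IGFBP7 (log2FC 1.52 ± 0.13) rose, IGF1 (52.1-fold lower, 95% counting interval 9.05 to 2085), IGFBP2 (log2FC -2.96 ± 0.22) and IGFBP6 (log2FC -2.58 ± 0.14) fell, and IGFBP4 (log2FC 0.29 ± 0.14, adjusted p = 0.0836) did not pass. Of the EGF family 5 of 9 tested rose and 3 fell. AREG had 4.35, 4.59 and 8.41 CPM in the control libraries and 562, 559 and 492 CPM in the senescent libraries (log2FC 6.56 ± 0.30), and NRG1 had 34.3, 25.5 and 23.9 CPM in the control libraries and 981, 1079.5 and 947 CPM in the senescent libraries (log2FC 5.16 ± 0.21). EREG (log2FC 5.05 ± 0.15) and HBEGF (log2FC 2.53 ± 0.24) rose, EGF (log2FC -2.02 ± 0.29) and the receptor ERBB2 (log2FC -2.12 ± 0.13) fell, and EGFR (log2FC 0.45 ± 0.22, adjusted p = 0.0701) did not pass. Of other growth factors 9 of 27 rose and 14 fell. ANGPT2 (log2FC 6.09 ± 0.30) rose as ANGPT1 (log2FC -3.21 ± 0.15), which opposes it at the TEK receptor, fell. PDGFB (log2FC 5.76 ± 0.37) and PDGFA (log2FC 1.78 ± 0.25) rose and PDGFD (log2FC -6.28 ± 0.20) fell. Among fibroblast growth factors FGF2 (log2FC 1.88 ± 0.092) rose, and FGF7 (log2FC -4.81 ± 0.18) and FGF10 (log2FC -5.10 ± 0.41), the mesenchymal signals to lung epithelium, fell. VEGFA (log2FC 1.73 ± 0.11) rose, CCN1 (log2FC -1.35 ± 0.17) and CCN2 (log2FC -1.67 ± 0.21) fell, and HGF (log2FC 0.20 ± 0.16, adjusted p = 0.287) did not pass.

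In the TGF-β superfamily 11 of 37 genes rose and 21 fell. INHBA, the activin A subunit, had 43.3, 49.4 and 61.2 CPM in the control libraries and 2794, 2906 and 2396 CPM in the senescent libraries (log2FC 5.72 ± 0.14). BMP2 had 22.974, 16.5 and 22.8 CPM in the control libraries and 709, 609 and 594 CPM in the senescent libraries (log2FC 4.94 ± 0.16), whereas BMP4 had 215, 178 and 202 CPM in the control libraries and 14.0, 11.6 and 13.6 CPM in the senescent libraries (log2FC -3.93 ± 0.14). BMP2 and BMP4 moved in opposite directions, with no overlap of the groups in either. TGFB1 (log2FC 1.27 ± 0.086) rose and TGFB3 (log2FC -4.07 ± 0.24) fell. The ID genes, direct targets of BMP signals, fell in ID2 (log2FC -3.73 ± 0.26), ID4 (log2FC -3.50 ± 0.60), ID1 (log2FC -2.71 ± 0.24) and ID3 (log2FC -1.28 ± 0.23), and the SMAD ligases SMURF1 (log2FC 1.29 ± 0.12) and SMURF2 (log2FC 1.62 ± 0.11) rose. GDF5 (log2FC -5.09 ± 0.26) had the largest fall, and BMP1 (log2FC -0.013 ± 0.1, adjusted p = 0.918) did not pass.

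Of Notch genes 8 of 15 rose and 2 fell: HEY1 (log2FC 5.50 ± 0.19) rose most, the receptors NOTCH1 (log2FC 1.10 ± 0.25) and NOTCH3 (log2FC 0.80 ± 0.18) rose, NOTCH2 (log2FC -0.068 ± 0.25, adjusted p = 0.818) did not pass, and JAG1 (log2FC -0.51 ± 0.14) and LFNG (log2FC -0.92 ± 0.17) fell. Of Wnt genes 13 of 31 rose and 16 fell. WNT2, a Wnt of lung mesenchyme, had 51.028, 54.2 and 56.2 CPM in the control libraries and 0.247, 0.0623 and 0 CPM in the senescent libraries (log2FC -8.99 ± 0.29), and WNT7B, better known from lung epithelium, had 0.363, 0.402 and 0.398 CPM in the control libraries and 99.9, 71.4 and 81.6 CPM in the senescent libraries (log2FC 7.74 ± 0.22). WNT5A (log2FC 1.08 ± 0.12) and WNT5B (log2FC 1.83 ± 0.11) rose. RSPO2 (at least 9.92-fold lower), FRZB (log2FC -5.66 ± 0.23) and SFRP1 (log2FC -3.10 ± 0.11) fell, and WNT11 (log2FC 0.37 ± 0.33, adjusted p = 0.333) did not pass. Frizzled receptors moved apart, with FZD8 (log2FC 3.89 ± 0.19) higher and FZD2 (log2FC -3.85 ± 0.12) and FZD7 (log2FC -2.96 ± 0.12) lower.

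Most genes of the extracellular matrix fell. Of 26 collagen genes 13 fell and 7 rose. Fibrillar chains fell in COL1A1, COL1A2, COL3A1 (log2FC -3.64 ± 0.17) and COL5A2 (log2FC -1.94 ± 0.14), and COL5A1 (log2FC 0.24 ± 0.21, adjusted p = 0.333) did not pass. COL15A1 had 213, 182 and 119.9 CPM in the control libraries and 0.988, 0.747 and 0.824 CPM in the senescent libraries (log2FC -7.64 ± 0.23). The collagen VI chains COL6A2 (log2FC 1.27 ± 0.095) and COL6A1 (log2FC 0.55 ± 0.14) rose and COL6A3 (log2FC 0.48 ± 0.23, adjusted p = 0.0681) did not pass. COL7A1, which forms the anchoring fibrils under epithelium, had 20.3, 21.2 and 16.2 CPM in the control libraries and 349.9, 335 and 284 CPM in the senescent libraries (log2FC 4.06 ± 0.17), and COL10A1, the collagen of hypertrophic cartilage, had 0.202, 0.0805 and 0.299 CPM in the control libraries and 66.1, 75.8 and 56.6 CPM in the senescent libraries (log2FC 8.42 ± 0.25). COL7A1 and COL10A1 rose in every senescent library.

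Of 43 matrix glycoproteins and proteoglycans 33 fell and 5 rose, with a median of -1.13. The small leucine-rich proteoglycans of the decorin family fell in LUM (log2FC -5.23 ± 0.15) and FMOD (log2FC -4.56 ± 0.20) as well as in DCN, ASPN and OGN, and BGN (log2FC -0.57 ± 0.12) fell less. Elastic fibre genes fell: ELN, elastin, had 31.6, 23.8 and 21.5 CPM in the control libraries and 0.123, 0.187 and 0.220 CPM in the senescent libraries (log2FC -7.12 ± 0.36), and MFAP4, a microfibril protein, had 842, 742 and 719.6 CPM in the control libraries and 22.5, 24.2 and 23.4 CPM in the senescent libraries (log2FC -5.04 ± 0.13). EFEMP1 (log2FC -6.95 ± 0.17), FBLN5 (log2FC -1.74 ± 0.10), FBN1 (log2FC -1.05 ± 0.25) and LOXL1 (log2FC -1.92 ± 0.091) fell too. FN1 (log2FC 0.39 ± 0.25, adjusted p = 0.18), TNC (log2FC 0.086 ± 0.25, adjusted p = 0.767) and LOX (log2FC 0.14 ± 0.11, adjusted p = 0.274) did not pass. The members that rose included LAMB3 (log2FC 2.85 ± 0.21), a laminin chain of epithelial basement membranes, the hyaluronan synthases HAS2 (log2FC 1.71 ± 0.20) and HAS1 (at least 7.83-fold higher), and LOXL2 (log2FC 0.69 ± 0.13).

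Integrins rose in 9 of 17 cases and fell in 4. ITGA3, a laminin receptor subunit, had 108, 97.0 and 68.7 CPM in the control libraries and 635, 615 and 598 CPM in the senescent libraries (log2FC 2.75 ± 0.13). ITGA5 (log2FC 2.07 ± 0.11), ITGA2 (log2FC 1.46 ± 0.21), ITGA1 (log2FC 1.72 ± 0.17) and ITGB1 (log2FC 1.37 ± 0.12) rose, ITGA9 (21.7-fold lower, 95% counting interval 3.61 to 885) and ITGAV (log2FC -0.30 ± 0.12) fell, and ITGA4 (log2FC -0.19 ± 0.16, adjusted p = 0.314) did not pass. ITGAV missed the threshold in 4 of 12 alternatives, whose adjusted p ranged from 0.000107 to 0.165: in a fit of only the 6 libraries (0.165) and without control replicate 1 (0.138), control replicate 2 (0.089) or senescent replicate 3 (0.165). Of contractile and cytoskeletal genes 17 of 30 fell and 8 rose. The falls included smooth-muscle genes that mark myofibroblasts: ACTA2 had 401, 411 and 449 CPM in the control libraries and 89.8, 88.9 and 99.3 CPM in the senescent libraries (log2FC -2.18 ± 0.12), and LMOD1 had 62.8, 80.2 and 71.6 CPM in the control libraries and 0.988, 1.49 and 0.714 CPM in the senescent libraries (log2FC -6.08 ± 0.25). DES (log2FC -6.18 ± 0.34), CNN1 (log2FC -3.32 ± 0.17) and MYH11 (log2FC -4.79 ± 0.46) fell and SMTN (log2FC 1.85 ± 0.082) rose. The abundant cytoplasmic actin ACTB (log2FC 0.081 ± 0.093, adjusted p = 0.452) and FLNA (log2FC 0.079 ± 0.17, adjusted p = 0.683) did not pass, nor did the light chain MYL9 (log2FC 0.19 ± 0.10, adjusted p = 0.113). The CArG box, the site of SRF, was found in 24.0% of 25 promoters of this list and 1.07% of those of tested genes. Caveolins and cavins fell in 5 of 9 cases and rose in 1: CAV1 had 716, 715 and 809.7 CPM in the control libraries and 117, 112 and 104 CPM in the senescent libraries (log2FC -2.75 ± 0.12), CAVIN2 (log2FC -4.13 ± 0.25) and CAVIN1 (log2FC -0.86 ± 0.09) fell, PACSIN2 (log2FC 0.47 ± 0.097) rose, and CAV2 (log2FC -0.11 ± 0.14, adjusted p = 0.485) did not pass.

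Most genes of sterol synthesis, fatty acid synthesis and glycolysis rose. Of 23 sterol genes 22 rose and 1 fell, with a median of 1.92. MSMO1, a sterol demethylating oxidase, had 49.3, 42.7 and 47.1 CPM in the control libraries and 368, 373 and 331 CPM in the senescent libraries (log2FC 2.95 ± 0.13). No senescent library overlapped a control library. INSIG1 (log2FC 2.84 ± 0.22), which holds SREBP in the endoplasmic reticulum when sterols are high, rose, and PMVK (log2FC -0.57 ± 0.20), phosphomevalonate kinase, was the one that fell. PMVK missed the threshold in 4 of 12 alternatives, whose adjusted p ranged from 0.000828 to 0.15: in a fit of only the 6 libraries (0.0581) and without control replicate 3 (0.15), senescent replicate 1 (0.0511) or senescent replicate 2 (0.0642). Of fatty acid genes 19 of 26 rose and 3 fell. FASN (log2FC 2.80 ± 0.24), ACLY (log2FC 1.70 ± 0.16), FADS1 (log2FC 2.36 ± 0.20) and DGAT2 (log2FC 4.26 ± 0.19) rose, CPT1A (log2FC -1.03 ± 0.11), which admits fatty acids to mitochondria, SCD5 (log2FC -2.09 ± 0.12) and PLIN2 (log2FC -0.69 ± 0.097) fell, and ACSL4 (log2FC -0.10 ± 0.10, adjusted p = 0.393) did not pass.

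Of 26 genes of glycolysis and lactate 23 rose and 1 fell, with a median of 1.15. HK2, a hexokinase, had 22.3, 17.2 and 14.4 CPM in the control libraries and 176, 159 and 169.8 CPM in the senescent libraries (log2FC 3.22 ± 0.17). ENO2 had 26.8, 25.1 and 25.1 CPM in the control libraries and 298, 326 and 339 CPM in the senescent libraries (log2FC 3.64 ± 0.11). GAPDH (log2FC 1.18 ± 0.10), GPI (log2FC 1.67 ± 0.09), PFKP (log2FC 1.64 ± 0.099), PFKFB4 (log2FC 2.11 ± 0.15) and the lactate exporter SLC16A3 (log2FC 1.73 ± 0.11) rose, LDHB (log2FC -0.087 ± 0.14, adjusted p = 0.591) did not pass, and PDK4, which holds pyruvate out of the mitochondria, had 14.3, 21.8 and 14.2 CPM in the control libraries and 0.803, 0.187 and 0.494 CPM in the senescent libraries (log2FC -5.07 ± 0.40). ALDOA was counted at only 5.94 ± 0.240 to 22.3 ± 3.43 CPM, and 54.2% of its exonic bases are shared with another annotated gene, so its level is uncertain. Nuclear genes of the respiratory chain changed by small amounts: 15 of 34 rose, 2 fell and 17 did not pass. UQCRC1 (log2FC 0.98 ± 0.10) and SDHA (log2FC 0.90 ± 0.093) rose, SDHD (log2FC -0.50 ± 0.13) fell and ATP5F1A (log2FC 0.08 ± 0.09, adjusted p = 0.443) did not pass.

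Enzymes of alcohol, retinoid and xenobiotic metabolism fell in 19 of 29 cases tested and rose in 7. Beside ADH1B and FMO2, ADH1C (at least 8.14-fold lower) and FMO1 (at least 3.74-fold lower) had no count in senescent libraries. These genes belong to families of similar sequence. CYP1B1 (log2FC -2.698 ± 0.15), NNMT (log2FC -3.48 ± 0.25) and the retinoic acid carrier CRABP2 (log2FC -3.70 ± 0.21) fell, and ADH5 (log2FC -1.03 ± 0.096) fell by less. CYP26B1, which breaks down retinoic acid, had 0.524, 0.724 and 0.398 CPM in the control libraries and 26.4, 29.9 and 27.7 CPM in the senescent libraries (log2FC 5.64 ± 0.22), and CYP1A1 was 107-fold higher, 95% counting interval 36.1 to 522. In prostaglandin metabolism 6 of 16 genes rose and 6 fell. PTGS2, the inducible cyclooxygenase, had 2.66, 3.58 and 3.73 CPM in the control libraries and 423, 426 and 346 CPM in the senescent libraries (log2FC 6.91 ± 0.26), and the constitutive PTGS1 had 157, 149.9 and 112 CPM in the control libraries and 39.6, 40.0 and 36.2 CPM in the senescent libraries (log2FC -1.86 ± 0.11). PTGES (log2FC -1.62 ± 0.19) and PTGDS (log2FC -1.86 ± 0.16), the terminal synthases of prostaglandins E and D, fell, like PTGIS, and PTGES3 (log2FC 0.18 ± 0.087, adjusted p = 0.0672) did not pass.

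Of NRF2 targets, iron and metal genes 21 of 39 rose and 10 fell. The metallothionein MT2A had 282, 314 and 435 CPM in the control libraries and 2841, 2601 and 3007 CPM in the senescent libraries (log2FC 3.04 ± 0.14), and MT1X (log2FC 2.60 ± 0.18) and MT1E (log2FC 0.61 ± 0.17), close in sequence, rose. TXNRD1 (log2FC 2.04 ± 0.098), SRXN1 (log2FC 1.84 ± 0.089), GCLM (log2FC 1.78 ± 0.12) and NQO1 (log2FC 1.06 ± 0.10), targets of NRF2, rose, and the gene of NRF2 itself, NFE2L2 (log2FC -1.02 ± 0.093), fell. GPX3, a secreted peroxidase, had 37.968, 54.4 and 43.5 CPM in the control libraries and 0.926, 0.560 and 0.549 CPM in the senescent libraries (log2FC -6.06 ± 0.27). SOD3 (log2FC -4.66 ± 0.21) and the iron exporter SLC40A1 (log2FC -4.37 ± 0.20) fell, the importer TFRC (log2FC 1.09 ± 0.11) rose, and the ferritin chains FTL (log2FC 0.15 ± 0.11, adjusted p = 0.237) and FTH1 (log2FC 0.12 ± 0.12, adjusted p = 0.387) did not pass.

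Lysosomal genes rose broadly. Of 60 tested 41 rose and 8 fell, with a median of 0.63. CTSS, cathepsin S, had 5.28, 7.00 and 7.56 CPM in the control libraries and 171, 169 and 174 CPM in the senescent libraries (log2FC 4.70 ± 0.14), and NPC1, the lysosomal cholesterol exporter, had 15.4, 10.1 and 6.32 CPM in the control libraries and 155, 146 and 137 CPM in the senescent libraries (log2FC 3.76 ± 0.22). CTSB (log2FC 1.73 ± 0.085) and CTSD (log2FC 1.17 ± 0.081) rose and CTSC (log2FC -1.72 ± 0.088), CTSF (log2FC -1.80 ± 0.13) and CTSK (log2FC -0.82 ± 0.15) fell. GLB1 (log2FC 0.85 ± 0.092), which encodes the β-galactosidase stained for in senescence assays, rose. Of the proton pump ATP6V0D2 (log2FC 5.89 ± 0.46), ATP6V0A1 (log2FC 1.86 ± 0.11) and ATP6V1B2 (log2FC 1.38 ± 0.078) rose. CD63 (log2FC 0.15 ± 0.12, adjusted p = 0.307) did not pass. Of autophagy genes 15 of 29 rose and 3 fell. BNIP3 (log2FC 1.52 ± 0.12) and the cargo receptor SQSTM1 (log2FC 0.92 ± 0.093) rose, GABARAPL1 (log2FC -0.98 ± 0.10) fell while GABARAPL2 (log2FC 0.81 ± 0.12) rose, and BNIP3L (log2FC 0.064 ± 0.092, adjusted p = 0.555) did not pass.

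In the early secretory pathway, tested against 2-fold, 0 genes of the COPI list, 1 of the COPII list and 3 of the ER chaperone list passed. Of COPI genes 11 of 26 rose and 7 fell, and the coat subunits moved apart, with ARCN1 (log2FC 0.64 ± 0.13) and COPE (log2FC 0.50 ± 0.12) higher, COPB1 (log2FC -0.39 ± 0.078) and COPZ2 (log2FC -1.10 ± 0.14) lower and COPZ1 (log2FC 0.16 ± 0.083, adjusted p = 0.0951) not past the threshold. ARF4 (log2FC -0.086 ± 0.13, adjusted p = 0.56) did not pass. Of COPII genes 9 of 20 rose and 2 fell: SEC23B (log2FC 0.96 ± 0.12) and SEC24C (log2FC 0.89 ± 0.12) rose, SEC31B (log2FC -2.15 ± 0.30) and SAR1A (log2FC -0.55 ± 0.082) fell, and SURF4 (log2FC 0.21 ± 0.092, adjusted p = 0.053) did not pass. Of ER chaperones and folding enzymes 17 of 34 rose and 1 fell. EDEM1 (log2FC 1.90 ± 0.11), which extracts misfolded glycoproteins, and the oxidase ERO1A (log2FC 1.89 ± 0.10) rose, HSPA5 (log2FC 0.51 ± 0.14) (BiP) rose by less, PPIB (log2FC -0.34 ± 0.11) fell, and CALR (log2FC 0.059 ± 0.097, adjusted p = 0.598) did not pass. PPIB missed the threshold in 2 of 12 alternatives, whose adjusted p ranged from 0.000517 to 0.0861: in a fit of only the 6 libraries (0.0861) and without control replicate 3 (0.0841). In the ATF4 and CHOP branch 10 of 31 rose and 8 fell. TRIB3 (log2FC 2.61 ± 0.19) and CHAC1 (log2FC 2.60 ± 0.29) rose, ATF4 (log2FC -0.67 ± 0.14) and its serine-synthesis target PHGDH (log2FC -1.88 ± 0.13) fell, NUPR1 had 102, 112 and 137 CPM in the control libraries and 2.35, 3.74 and 3.24 CPM in the senescent libraries (log2FC -5.23 ± 0.16), and STC2 (log2FC 0.16 ± 0.13, adjusted p = 0.267) did not pass.

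Interferon-stimulated genes mostly fell. Of 43 tested 31 fell and 4 rose, with a median of -0.96. IFIT1, which binds foreign RNA, had 12.6, 13.8 and 17.2 CPM in the control libraries and 0.370, 0.249 and 0.330 CPM in the senescent libraries (log2FC -5.49 ± 0.35). GBP2 had 34.8, 42.8 and 41.5 CPM in the control libraries and 0.679, 1.49 and 1.04 CPM in the senescent libraries (log2FC -5.20 ± 0.22), and IFITM3 had 407, 409.7 and 552 CPM in the control libraries and 129, 115 and 132 CPM in the senescent libraries (log2FC -1.86 ± 0.12). No library of the groups overlapped in these genes. IFI44L was 81.7-fold lower, 95% counting interval 14.4 to 3257. IRF9 (log2FC -0.99 ± 0.15) and STAT2 (log2FC -0.82 ± 0.11), parts of the factor that interferon activates, fell, and IRF1 (log2FC 0.27 ± 0.15, adjusted p = 0.111), ISG15 (log2FC 0.38 ± 0.22, adjusted p = 0.127) and STING1 (log2FC 0.047 ± 0.092, adjusted p = 0.659) did not pass. CMPK2 (log2FC 4.31 ± 0.36) and OASL (11.1-fold higher, 95% counting interval 2.60 to 99.2) rose. OASL missed the threshold in 1 of 11 alternatives, whose adjusted p ranged from 0.00139 to 0.0715: without senescent replicate 3 (0.0715). Promoters of this list often held the interferon-stimulated response element, which was present in 18 of 31 (58.1%) and in 2.35% of promoters of tested genes. It is shown in capitals in the 250 bases before the start of IFIT1 (chr10:89392373-89392622, plus strand, RefSeq, GRCh38.p14), where it occurs on the other strand.
IFIT1: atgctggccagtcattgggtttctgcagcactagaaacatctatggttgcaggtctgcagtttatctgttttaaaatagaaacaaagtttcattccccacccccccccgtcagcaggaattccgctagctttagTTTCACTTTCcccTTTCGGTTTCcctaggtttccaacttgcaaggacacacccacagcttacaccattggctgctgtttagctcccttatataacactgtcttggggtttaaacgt
The pair of matches lies from 116 to 107 and from 103 to 94 bases before the start.

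Genes by which immune cells recognise a cell rose in 20 of 29 cases and fell in 4. The NKG2D ligands rose: ULBP2 had 1.85, 2.09 and 1.94 CPM in the control libraries and 16.5, 17.9 and 20.9 CPM in the senescent libraries (log2FC 3.23 ± 0.17), and MICA (log2FC 2.66 ± 0.12), ULBP1 (log2FC 2.18 ± 0.14) and ULBP3 (log2FC 1.39 ± 0.14) rose with it. CD274, the checkpoint ligand PD-L1, had 2.46, 2.17 and 2.69 CPM in the control libraries and 14.3, 21.4 and 16.978 CPM in the senescent libraries (log2FC 2.85 ± 0.18), and CD47 (log2FC -0.95 ± 0.098), the signal that restrains macrophages, fell. The complement inhibitors CD55 (log2FC 2.25 ± 0.11) and CD59 (log2FC 1.20 ± 0.10) rose. TAP1 (log2FC 1.16 ± 0.086) rose while PSMB9 (log2FC -1.90 ± 0.21), its neighbour on the chromosome, and B2M (log2FC -0.51 ± 0.12) fell. Complement and coagulation genes fell in 13 of 24 cases and rose in 8. C1R, which starts the classical pathway, had 791, 811 and 718 CPM in the control libraries and 14.6, 13.9 and 14.6 CPM in the senescent libraries (log2FC -5.75 ± 0.10). C1S (log2FC -2.89 ± 0.10), A2M (log2FC -4.19 ± 0.19) and CLU (log2FC -2.06 ± 0.10) fell and CFI (at least 15.9-fold lower) had no count in senescent libraries. THBD, thrombomodulin, had 0.564, 0.603 and 0.547 CPM in the control libraries and 45.9, 52.1 and 44.5 CPM in the senescent libraries (log2FC 6.36 ± 0.23). TFPI2 (log2FC 5.82 ± 0.24) and F2RL1 (log2FC 3.85 ± 0.11) rose, and F3 (log2FC 0.27 ± 0.18, adjusted p = 0.193) and C3 (log2FC 0.29 ± 0.17, adjusted p = 0.129) did not pass.

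In the BCL2 family 11 of 17 genes rose and 3 fell. Of the genes that protect cells from apoptosis, MCL1 had 329, 311 and 305 CPM in the control libraries and 1353, 1191 and 1178 CPM in the senescent libraries (log2FC 1.98 ± 0.11), and BCL2A1 had 0.806, 1.33 and 0.945 CPM in the control libraries and 43.1, 39.2 and 40.0 CPM in the senescent libraries (log2FC 5.30 ± 0.24). BCL2L1 (log2FC 0.75 ± 0.08) (BCL-XL) rose and BCL2 had 3.75, 3.34 and 2.89 CPM in the control libraries and 0.432, 0.623 and 0.440 CPM in the senescent libraries (log2FC -2.73 ± 0.30). Of those that promote apoptosis BAK1 (log2FC 1.14 ± 0.11) and BID (log2FC 0.86 ± 0.11) rose, BCL2L11 (log2FC -2.57 ± 0.27) (BIM) fell, and BAD (log2FC 0.11 ± 0.14, adjusted p = 0.505) did not pass.

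Most ribosomal protein genes fell, by small amounts. Of 73 cytosolic ribosomal protein genes 62 fell and 1 rose, with a median of -0.62. They ranged from RPS23 (log2FC -1.27 ± 0.13) to the single riser RPL17 (log2FC 0.96 ± 0.20), and RPL8 (log2FC -0.22 ± 0.13, adjusted p = 0.135) was the most abundant that did not pass. RPS4X had 1198, 1363 and 1833 CPM in the control libraries and 727, 709 and 765 CPM in the senescent libraries. The control libraries were not alike in these genes, with replicate 3 the highest, as given above for their share of counts. Without control replicate 3 the median of the list was -0.35, so its size rests in part on that library. Of ribosome biogenesis genes 12 of 26 rose and 7 fell: RRP12 (log2FC 1.26 ± 0.15) rose, UBTF (log2FC -0.83 ± 0.11) and NPM1 (log2FC -0.53 ± 0.13) fell, and PES1 (log2FC 0.032 ± 0.12, adjusted p = 0.819) did not pass. Of proteasome genes 20 of 31 rose and 0 fell, led by PSMD2 (log2FC 1.74 ± 0.084), a subunit of the regulatory particle, and PSMA7 (log2FC 0.17 ± 0.14, adjusted p = 0.287) did not pass.

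Most transcription factors of lung fibroblasts fell. Of 45 tested 32 fell and 6 rose, with a median of -1.20. TBX4, which specifies lung mesenchyme, had 17.4, 17.5 and 10.4 CPM in the control libraries and 0.617, 0.747 and 0.549 CPM in the senescent libraries (log2FC -4.57 ± 0.29). TCF21, a factor of lipofibroblasts, had 76.3, 72.7 and 69.8 CPM in the control libraries and 6.54, 5.10 and 5.05 CPM in the senescent libraries (log2FC -3.71 ± 0.11). NR2F1 (log2FC -3.28 ± 0.11), MEIS1 (log2FC -2.93 ± 0.16), TWIST1 (log2FC -1.88 ± 0.14) and PRRX1 (log2FC -1.30 ± 0.11) fell. FOXF1 (log2FC -0.15 ± 0.094, adjusted p = 0.156), a factor of lung mesenchyme, and ZEB2 (log2FC -0.043 ± 0.15, adjusted p = 0.807) did not pass. POU2F2, a factor best known from B cells, had 7.70, 9.21 and 12.2 CPM in the control libraries and 335, 354 and 323 CPM in the senescent libraries (log2FC 5.13 ± 0.16), and ETS1 (log2FC 1.94 ± 0.10) and ZEB1 (log2FC 0.72 ± 0.12) rose. HOX genes fell in 11 of 19 tested and rose in 4. HOXA5 had 47.3, 57.7 and 58.4 CPM in the control libraries and 3.77, 3.36 and 3.41 CPM in the senescent libraries (log2FC -3.95 ± 0.16). HOXA2 (log2FC -4.11 ± 0.29), HOXA3 (log2FC -4.12 ± 0.26) and HOXA7 (log2FC -2.999 ± 0.20) fell, and in the B cluster HOXB3 (log2FC -2.15 ± 0.16) and HOXB4 (log2FC -2.03 ± 0.12) fell, HOXB5 (log2FC 0.39 ± 0.11) and HOXB6 (log2FC 0.75 ± 0.15) rose, HOXB9 (log2FC 3.87 ± 0.60) rose from near 0 and HOXB2 (log2FC -0.081 ± 0.11, adjusted p = 0.522) did not pass. HOXB5 missed the threshold in 1 of 12 alternatives, whose adjusted p ranged from 0.00113 to 0.0884: under upper quartile scaling (0.0884).

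Several genes used as endothelial markers were higher in senescent cells. ROBO4 had 0.927, 0.885 and 0.547 CPM in the control libraries and 32.7, 30.1 and 31.1 CPM in the senescent libraries (log2FC 5.28 ± 0.24). CLDN5, a tight junction protein, had 0.161, 0.0402 and 0.0995 CPM in the control libraries and 20.6, 14.6 and 23.5 CPM in the senescent libraries (log2FC 7.52 ± 0.42), and TIE1 had 0.564, 0.483 and 0.597 CPM in the control libraries and 33.5, 25.1 and 29.8 CPM in the senescent libraries (log2FC 5.74 ± 0.26). The groups did not overlap in any of them. PECAM1 (log2FC 3.73 ± 0.41), VWF (log2FC 2.36 ± 0.24) and CDH5 (123-fold higher, 95% counting interval 21.5 to 4914) rose at low CPM, the receptor TEK (log2FC -1.91 ± 0.20) fell, KDR and ERG were under the filter, and EMCN was at or under 3 counts in every library. The summed level of the 10 markers was 34.9 to 60.9 CPM in control and 82.8 to 99.8 CPM in senescent libraries. These sums are without the adjustment for composition. SOX17, THBD and HEY1, described above, are also known from endothelium. Whether these counts come from the fibroblasts or from other cells was not tested.

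Long non-coding and miRNA host genes fell in 17 of 26 cases tested and rose in 6. MIR31HG, the host gene of miR-31, had 10.4, 9.29 and 11.4 CPM in the control libraries and 82.2, 76.9 and 74.4 CPM in the senescent libraries (log2FC 2.91 ± 0.11). MIR3142HG, the host of miR-146a, was without a count in control libraries (at least 57.8-fold higher). MALAT1 (log2FC -1.94 ± 0.26), NEAT1 (log2FC -1.30 ± 0.18), MEG3 (log2FC -1.84 ± 0.16) and GAS5 (log2FC -0.94 ± 0.13) fell, and MIR4435-2HG, the most abundant that did not pass, had a log2FC of 0.19 ± 0.15. Host gene counts do not measure the miRNA. Of ion channel and purinergic genes 9 of 24 tested rose and 11 fell. NT5E (CD73), which makes adenosine, had 239, 205 and 178 CPM in the control libraries and 1745, 1740.3 and 1528 CPM in the senescent libraries (log2FC 3.01 ± 0.11). KCNJ15 (log2FC 5.54 ± 0.24) and TRPV2 (log2FC 3.01 ± 0.093) rose, KCNJ2 (log2FC -2.63 ± 0.27) and ANO1 (log2FC -1.64 ± 0.21) fell beside KCNK2, and PIEZO1 (log2FC 0.32 ± 0.17, adjusted p = 0.0909) did not pass.

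Some genes kept their level closely. In 823 genes (5.74% of those tested) the 95% interval of the log2FC lay within 0.32 of 0 in either direction. That number was 520.0 without senescent replicate 1, 527 without senescent replicate 2, 277 in a fit of only the 6 libraries and 2384 with no filter beyond 1 count. Among those with a mean of at least 100 CPM the narrowest intervals belonged to STAU1, VPS35, FXR1, XRCC6, STARD7, CTNNB1, HSD17B4, RAB10, XRCC5 and TRPC4AP. VPS35, a retromer subunit, had 176, 172 and 178 CPM in the control libraries and 184, 187 and 171 CPM in the senescent libraries, and CTNNB1, β-catenin, had 405, 388 and 382 CPM in the control libraries and 349, 356 and 372 CPM in the senescent libraries. HSD17B4, a peroxisomal enzyme of fatty acid oxidation, had 110.3, 111 and 101.26 CPM in the control libraries and 109.5, 107 and 107 CPM in the senescent libraries, a log2FC of 0.0031 with an interval of -0.15 to 0.15. The libraries of the groups overlapped for VPS35 and HSD17B4 and not for CTNNB1. FXR1 passed the test, with a log2FC of -0.17 ± 0.07 (adjusted p = 0.0401), although its interval stayed within that range. FXR1 missed the threshold in 8 of 12 alternatives, whose adjusted p ranged from 0.000561 to 0.292: under RLE size factors (0.0904), with no filter beyond 1 count (0.292), in a fit of only the 6 libraries (0.22) and without control replicate 1 (0.0547), control replicate 3 (0.0556), senescent replicate 1 (0.0697), senescent replicate 2 (0.0949) or senescent replicate 3 (0.0819).

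The same contrast was available in cells that received an inhibitor of N-myristoyltransferases in both states, in libraries that are not shared with the DMSO comparison. With IMP1088, 10626 genes were called, and 7899 genes were called in the same direction as with DMSO, which is 80.4% of the DMSO calls and 74.3% of the IMP1088 calls. With DDD86481, 10616 genes were called and 7801 matched in direction, 79.4% of the DMSO calls and 73.5% of its own. In the opposite direction were 274 and 297 genes. All groups shared 1 estimate of the spread.

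The study's methods name a directional library kit and a strand-aware alignment. The submitters' processing notes name other tools, and whether the counting used the strand is not given in the sources used here, so reads of overlapping genes may not have been told apart. Of 511 genes named here with a GENCODE annotation, 92 shared at least 10% of their exonic bases with another annotated gene on either strand. More than 50% was shared by MIF (94.1%), SRXN1 (90.7%), CD68 (85.6%), MALAT1 (83.7%), IGF1 (82.5%), FTH1 (63.2%), HOXA7 (62.5%) and ALDOA (54.2%), and the values of these genes are uncertain. Smaller shares were found for ACTA2, ADAM17, ANO1, ARF4, ATP6V0D2, BAD, BCL2L1, BCL2L11, BMP4, C1R, C3, CCN2, CCND1, CCND2, CCNE2, CDK4, CDKN2A, CDKN2C, CEBPB, CFI, CTSD, CXCL5, CYP1B1, DUSP6, ERCC1, F2RL1, FGF2, FLT3LG, FOXM1, GAPDH, GDF5, GLB1, HOXA3, HOXB3, HOXB6, ICAM1, IFITM3, IGFBP7, IL11RA, IL16, IL24, IRF1, IRF9, ITGA1, ITGA4, LDHB, LMOD1, MACROH2A1, MAP2K1, MCM2, MDM2, MEIS1, MIR31HG, MMP9, MT1X, NFE2L2, NQO1, NUPR1, PIEZO1, PLAU, PLK1, POLA2, PPIB, PTGDS, RAD54L, RBL2, REL, RPL17, SDHA, SDHD, SEC24C, SEC31B, SERPINB2, SERPINB3, SMURF1, SQSTM1, TAGLN, TAP1, TCF21, TIMP4, TPT1, TRPV2, VIM and ZEB2.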

How the data were processed

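The libraries are RNA-seq of IMR90 ER:RAS cells. A table of raw read counts per gene was deposited by the authors, with no normalization. The study's methods name TopHat 2.0.11 with hg19 and HTSeq, while the submitters' processing notes name hg38, DRAGEN, STAR 2.7.8a and DESeq2 1.32.0. The build behind the counts is therefore uncertain, and no coordinate was taken from it.

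From the counts, CPM were computed and genes were tested with edgeR 4.0.16 (R 4.3.3; TMM, quasi-likelihood F test, Benjamini-Hochberg adjustment, threshold 0.05) in 1 fit of all 18 libraries. A filter on low counts left 14341 of 28266 genes, with 99.96% of counts. Tests against 2-fold used the treat method. DESeq2 1.42.0, other scalings, no filter, a replicate block and leaving out each library were alternatives, and the fit was tested on simulated data.

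The comparison, the gene lists and the tests were chosen with earlier results of these data known. Genes were named by rule: the 15 largest fitted rises and falls at 1 CPM or more in every library of the higher group, without overlap and with 1 sign when any library was left out, the 10 largest gains and losses in CPM, for each list the largest rise, the largest fall and the most abundant member that did not pass, the 10 narrowest intervals, and the cluster members. Other members were named for their roles, after their values were seen. Some genes that this rule names are not reported here.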

Additional observations from a re-analysis of the deposited data

How the results depend on the processing

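Leaving out each library in turn, the number of genes called ranged from 9239 to 10027 (9827 with all), those past 2-fold from 3043 to 3244 (3190 with all), and calls in the same direction from 7487 to 8538 with IMP1088 and from 7390 to 8493 with DDD86481. The number within 0.32 (log2) depended on the processing: it was 823, went to 2384 with no filter beyond 1 count and to 277 with only the 6 libraries in the fit, and ranged from 520.0 to 937 with a library left out, where the lowest values, 520.0 and 527, were without senescent replicate 1 and replicate 2. It rose to 937 without control replicate 3, and the cause of these shifts was not tested. DESeq2 called 10142 genes, and upper quartile scaling 9944, of which 38.2% were higher, against 47.5% with TMM.

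Replicate numbers are shared by the groups. Same-numbered libraries deviated together with correlations of 0.051, 0.056 and 0.11, and unlike-numbered libraries with correlations of -0.094 to 0.044. The same-numbered values were the higher ones, though small. The main fit did not treat libraries as pairs, and the labels do not say whether equal numbers were handled together. With the replicate block 9913 genes were called, 3229 past 2-fold, 874 within 0.32 (log2), and 7961 and 7883 in the same direction with IMP1088 and DDD86481.

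Of 521 genes named, 34 changed sign under an alternative, and 0 of them had passed the threshold. The 12 named genes that passed and missed the threshold under 1 or more alternatives were ECT2, FOS, FXR1, HOXB5, ITGAV, LMNA, MACROH2A1, MDM2, NFKBIA, OASL, PMVK and PPIB. The medians of 23 gene lists moved by more than the spread between libraries under 1 or more alternatives. The cause was not tested. Under RLE size factors the log2FC became 0.018 for BMP1. Under upper quartile scaling the log2FC became -0.076 for ACTB, -0.15 for ADAM9, -0.078 for ATP5F1A, -0.063 for AURKA, -0.048 for BAD, -0.092 for BNIP3L, -0.097 for CALR, -0.013 for CD63, -0.15 for E2F4, -0.072 for FLNA, -0.037 for FTH1, -0.0073 for FTL, -0.15 for HSD17B4, -0.12 for IL32, -0.15 for LMNB2, -0.016 for LOX, -0.11 for OSMR, -0.13 for PES1, -0.035 for RAB10, -0.15 for RB1, -0.013 for STARD7, -0.039 for STAU1, -0.11 for STING1, -0.063 for TNC, -0.11 for VPS35. Under no filter beyond 1 count the log2FC became 0.017 for BMP1. Under a fit of only the 6 libraries the log2FC became 0.0081 for BMP1. Under the replicate block the log2FC became -0.0014 for E2F4. Under DESeq2 the log2FC became 0.018 for BMP1. With 1 library left out the log2FC ranged from -0.065 to 0.066 for ADAM9, -0.19 to 0.061 for ARF4, -0.013 to 0.18 for AURKA, -0.021 to 0.32 for BAD, -0.12 to 0.092 for BMP1, -0.020 to 0.14 for BNIP3L, -0.27 to 0.12 for CAV2, -0.050 to 0.54 for COL5A1, -0.025 to 0.019 for E2F4, -0.16 to 0.33 for FLNA, -0.00059 to 0.32 for FTH1, -0.22 to 0.091 for HOXB2, -0.038 to 0.023 for HSD17B4, -0.13 to 0.25 for IL32, -0.21 to 0.093 for LDHB, -0.076 to 0.11 for LMNB2, -0.20 to 0.031 for NFKB1, -0.40 to 0.28 for NOTCH2, -0.18 to 0.23 for OSMR, -0.065 to 0.16 for PES1, -0.087 to 0.089 for RB1, -0.023 to 0.11 for STING1, -0.21 to 0.41 for TNC, -0.0011 to 0.085 for VPS35, -0.19 to 0.12 for ZEB2.

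With 3 libraries a group small changes lie near the threshold, and genes near 3 counts have only bounds or wide counting intervals.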
